A study of Rattus norvegicus with 2 samples.

Results

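GABA-A receptors are the chloride channels through which most fast inhibition in the hippocampus runs, and 7 of their subunit genes were followed here: Gabra2, Gabra3, Gabra4, Gabra5, Gabra6, Gabrb1 and Gabrd. Every probe set of the array that the platform's annotation pairs with one of these symbols and no other was taken. These 7 of the 4736 genes named by 1 symbol had 11 of the 8740 non-control probe sets, with 2 probe sets for 4 of the genes and 1 for the other 3. RNA from synaptosomes of the hippocampus, which are sealed nerve terminals and adhering postsynaptic membrane isolated by fractionation, was set against RNA from the total hippocampus. Both came from Sprague Dawley rats at postnatal day 70, and the labels name no treatment or genetic change. The purpose in the labels was to find mRNAs more abundant at the synapse. Each group had 1 array, from a number of animals that the labels leave out, so no test between the groups was possible and each value below is a single reading.

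A GABA-A receptor is a ring of subunits, usually containing alpha and beta subunits together with a gamma or a delta subunit. The alpha subunit sets much of where a receptor sits and how it responds. Receptors with alpha2 or alpha3 and a gamma subunit are concentrated at synapses and carry brief inhibitory currents, and alpha2 is known at the axon initial segment of pyramidal cells. Receptors with alpha5, or with alpha4 or alpha6 paired with delta, lie largely outside synapses and carry a steady tonic current. Alpha5 is a characteristic subunit of hippocampal pyramidal cells, the alpha4 and delta pair of dentate granule cells, and alpha6 of cerebellar granule cells.

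The deposited values are linear intensities that can be negative. Signals below 846, the median of all non-control values of both arrays, were set to that floor. Log2 ratios were taken as synaptosome minus total hippocampus and centred on the median of the 4370 probe sets past a filter on mean level. The centring multiplies folds of higher probe sets by 1.13. Where 1 array was at the floor the ratio is a bound, which holds only with this floor and centring, and is written "at least". The sizes of negative values show the spread around no signal: their 95th percentile was 2912.6 in synaptosomes and 5280.25 in the hippocampus. Only Gabra2 and 1 probe set of Gabra5 exceeded it in synaptosomes, and only Gabra2 in the hippocampus. A bound resting on signals inside this spread is no guaranteed minimum, and the folds below are uncertain for the same reason. Within genes that had several filtered probe sets, 658 in all, log2 ratios had an SD of 0.90. It was the only measured error and leaves out animals, preparations and amplification.

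Across the family the readings differed in direction, which is not read as a division of the subunits. Gabra6, Gabrd and 1 of the 2 probe sets of Gabra3 read higher in synaptosomes, with hippocampus signals at the floor. These passed the filter only through the synaptosome array, which fixes their direction. Gabra5 read higher with 1 of its 2 probe sets. Gabra2 and Gabra4 read lower, with ratios or bounds short of 2-fold, and Gabrb1 was at the floor on both arrays. The ratios of Gabra2 and Gabra4 were within the SD of 0.90, and the Gabra4 bound had its direction fixed by the filter. Whether a change reflects more cells or endings of a type or more RNA in each cannot be told apart in such bulk samples.

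**Figure D1:**
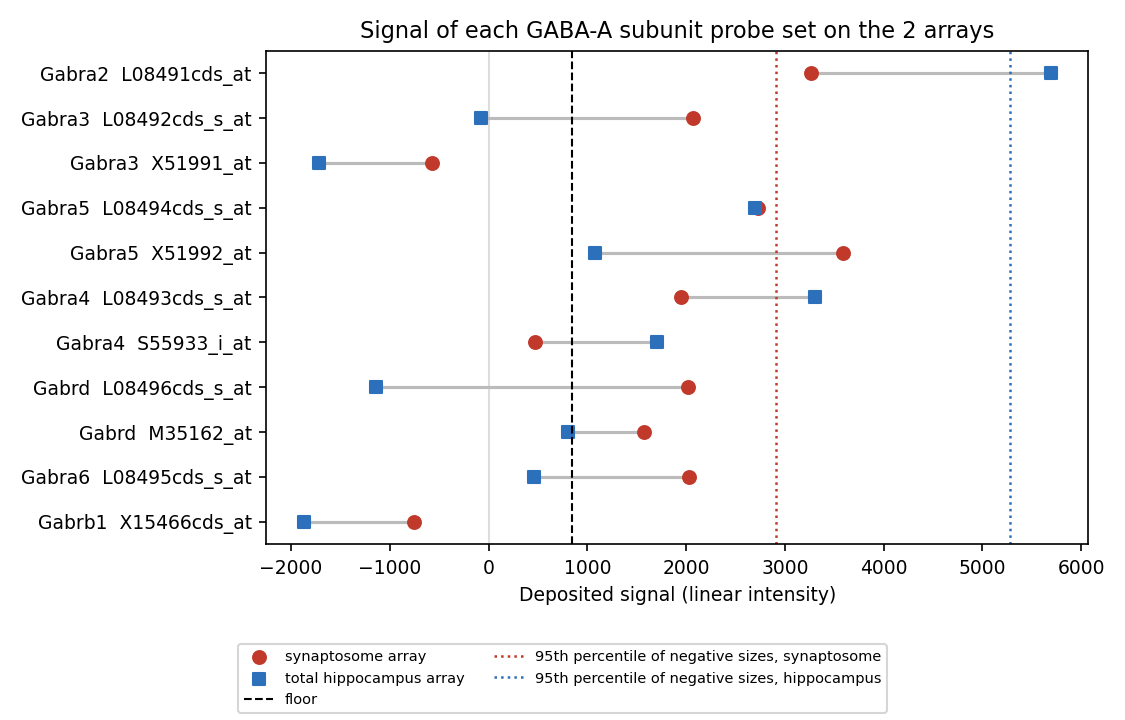
Deposited linear signal of each of the 11 GABA-A subunit probe sets on the synaptosome array (circles) and the total hippocampus array (squares), with the floor of 846 (dashed) and the 95th percentile of negative sizes on each array (dotted, 2912.6 and 5280.25). Most points lie left of the dotted line of their own array, and Gabra2 alone lies right of it on both.

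Gabra2, which encodes the alpha2 subunit, is the 1 member measured beyond the spread of negative values on both arrays. Its probe set (L08491cds_at) read 3267 in synaptosomes against 5693 in the total hippocampus. The log2 ratio was -0.63, or 1.55-fold lower in synaptosomes. This size is smaller than the SD between probe sets of 1 gene, so the difference is within that error. Gabra2 kept a negative ratio under all 6 alternative processing settings, between -0.80 and -0.67. Both readings lie above the raised floor of 2798.5, so that floor changed only the centring of this ratio.

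Gabra3, which encodes the alpha3 subunit, had probe sets that differed in whether they registered a signal at all. L08492cds_s_at read 2073 in synaptosomes against -79 in the total hippocampus, which is at least 2.76-fold higher in synaptosomes. X51991_at read -568 in synaptosomes against -1721 in the total hippocampus, at the floor on both arrays. The higher reading thus rests on 1 probe set, and the synaptosome reading is inside the spread of negative values on that array. Of the 4297 probe sets at or under the floor in the hippocampus, 4.93% were as bright in synaptosomes as this one.

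Gabra5, which encodes the alpha5 subunit of tonic and pyramidal-cell receptors, had 2 probe sets above the floor on both arrays, with different ratios. X51992_at read 3593 in synaptosomes against 1078 in the total hippocampus, which makes a log2 ratio of 1.91, or 3.75-fold higher. L08494cds_s_at read 2724 in synaptosomes against 2697 in the total hippocampus, and its log2 ratio was 0.18. The ratios differed by 1.72 on the log2 scale, where the SD of 0.90 for single ratios corresponds to 1.28 for a difference. The hippocampus reading of 1078 lies inside the spread of negative values, so the size of the first ratio is uncertain. That probe set ranked 206 from the top among the 4370 filtered probe sets, and the other ranked 1884. With the floor raised to percentile 75 of all values, 2798.5, the hippocampus reading of X51992_at is at the floor and its ratio becomes a bound of 0.44.

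Gabra4, which encodes the alpha4 subunit that partners delta in the forebrain, read lower in synaptosomes on both probe sets. L08493cds_s_at read 1944 in synaptosomes against 3309 in the total hippocampus, with a log2 ratio of -0.60, or 1.51-fold lower. S55933_i_at read 473, under the floor, in synaptosomes against 1706 in the total hippocampus, at least 1.79-fold lower. The ratio of the first was within the SD of 0.90. The second gives only a bound, -0.84 on the log2 scale, so the distance between them is not known. Without centring the bound of the second was -1.01, just past 2-fold.

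Gabrd, which encodes the delta subunit, read higher in synaptosomes on both probe sets. L08496cds_s_at read 2023 in synaptosomes against -1144 in the total hippocampus, at least 2.69-fold higher. M35162_at read 1570 in synaptosomes against 800 in the total hippocampus, which is 1.86-fold against the floor and 2.09-fold with the centring. Of the 4297 probe sets at or under the floor in the hippocampus, 5.19% were as bright in synaptosomes as the first and 8.08% as the second. The value of M35162_at therefore passes 2-fold only with the centring, and the distance between the probe sets is not known.

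The delta and alpha4 subunits are known as partners in 1 receptor, and their values are set side by side here as a description. Over the 4 pairings of a Gabrd with a Gabra4 probe set, the log2 ratio of Gabrd exceeded that of Gabra4 by at least 1.66 to at least 2.27. Both Gabrd probe sets passed the filter only through the synaptosome array and S55933_i_at of Gabra4 only through the hippocampus array, which fixes the direction of these 3 values. The filter thus sets both Gabrd probe sets above S55933_i_at, and the ratio of L08493cds_s_at of Gabra4 was within the SD of 0.90. The 4 pairings are therefore not read as a difference between the subunits. All 4 rest on readings inside the spread of negative values. The highest Gabrd reading was 2023 and the highest Gabra4 reading 3309, against limits of 2912.6 in synaptosomes and 5280.25 in the hippocampus.

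Gabra6, which encodes the alpha6 subunit known mainly from cerebellar granule cells, had 1 probe set. L08495cds_s_at read 2030 in synaptosomes, while its total hippocampus reading of 459 lay below the floor, so that it was at least 2.70-fold higher. Of the probe sets at or under the floor in the hippocampus, 5.17% were as bright in synaptosomes. Gabra6 itself is on the list of cerebellar granule and Purkinje cell markers, which had 6 probe sets for 5 of its 8 genes here. They summed to 14431 in synaptosomes and 16723 in the hippocampus. Besides Gabra6, Grm4, a metabotropic glutamate receptor, read 2662 in synaptosomes and 1918 in the hippocampus, and the brighter probe set of Neurod1, a transcription factor that dentate granule cells also express, read 5141 in synaptosomes and 5248 in the hippocampus. Calb1 read 2360 in synaptosomes and 4698 in the hippocampus, and Pvalb, a calcium buffer like it, 1926 in synaptosomes and 4424 in the hippocampus. Of the 5 filtered probe sets of this list 1, of Gabra6, was at least 2-fold higher, against 19.1% of all filtered probe sets. Another 1, of Pvalb, was at least 2-fold lower, against 14.9%, and Pvalb is also on the interneuron list. The Gabra6 probe set passed the filter only through the synaptosome array, which fixes its direction. The part of cerebellar tissue in the Gabra6 reading was not tested.

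Gabrb1, which encodes the beta1 subunit, had 1 probe set, X15466cds_at, that read -751 in synaptosomes against -1871 in the total hippocampus. It has no ratio, and at this signal its presence could not be detected on either array.

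**Figure D2:**
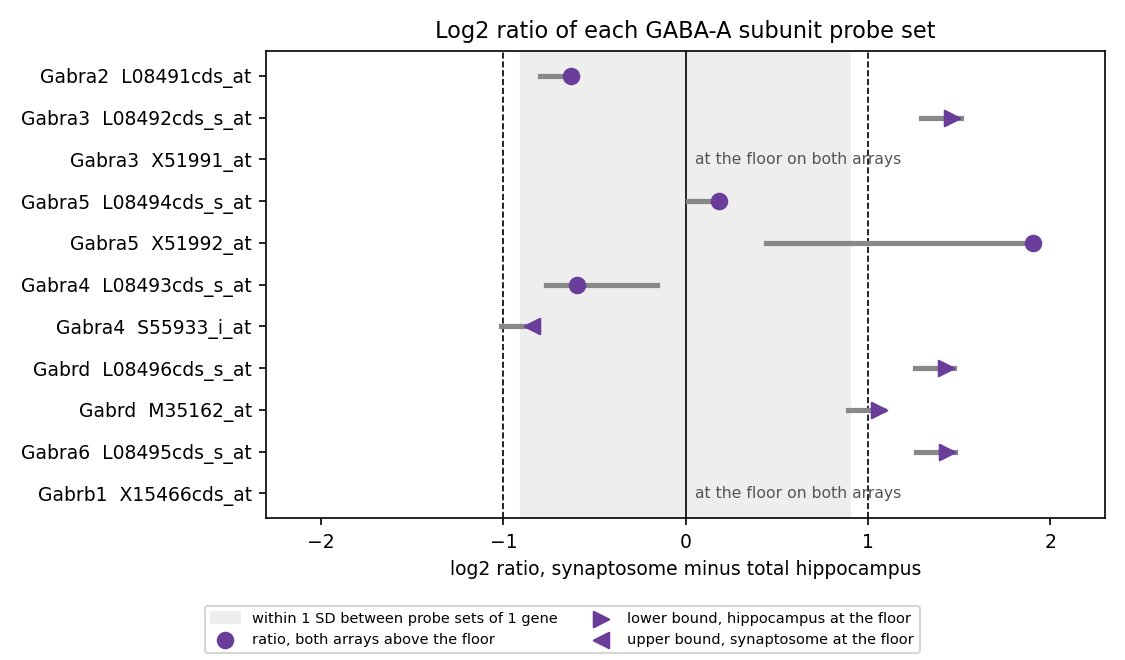
Log2 ratio, synaptosome minus total hippocampus, of each GABA-A subunit probe set, with circles for ratios measured above the floor on both arrays and triangles for bounds. Grey bars span the values over the processing settings that gave one, the shaded band is 1 SD between probe sets of 1 gene (0.90) and dashed lines mark 2-fold. Points lie outside the dashed lines on the higher side for 5 probe sets and on the lower side for 0.

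Counted by probe set, 9 of the 11 passed the filter and 2 were at the floor on both arrays. At least 2-fold higher in synaptosomes were 5 of the 9, against 19.1% of all 4370 filtered probe sets, or 4 against 14.8% without centring. At least 2-fold lower were 0 of the 9, against 14.9% of all, or 1 against 20.3% without centring. The share of higher among all probe sets past 2-fold was 56.2% with centring and 42.1% without. Over the 9, bounds included, the log2 ratio ran from -0.84 to 1.91 with a median of 1.06, beside a median of 0 for all filtered probe sets, where centring sets it.

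Of the 5 higher readings 4 were bounds, and the filter bears on their count. A probe set at the floor in the hippocampus passed it only with a synaptosome signal of at least 1374, which by itself gives a centred log2 ratio of 0.87 or more. Of the 427 filtered probe sets in that state, 375, or 87.8%, were at least 2-fold higher. Of the 4 members above the floor on both arrays, 1 was at least 2-fold higher, X51992_at of Gabra5, where 13.5% of the 3392 filtered probe sets in that state were. The count of 5 is therefore not read as a shift of the family. With the floor of 2798.5, 3 members kept a ratio and 0 of them were at least 2-fold higher, with a median of -0.16.

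**Figure D3:**
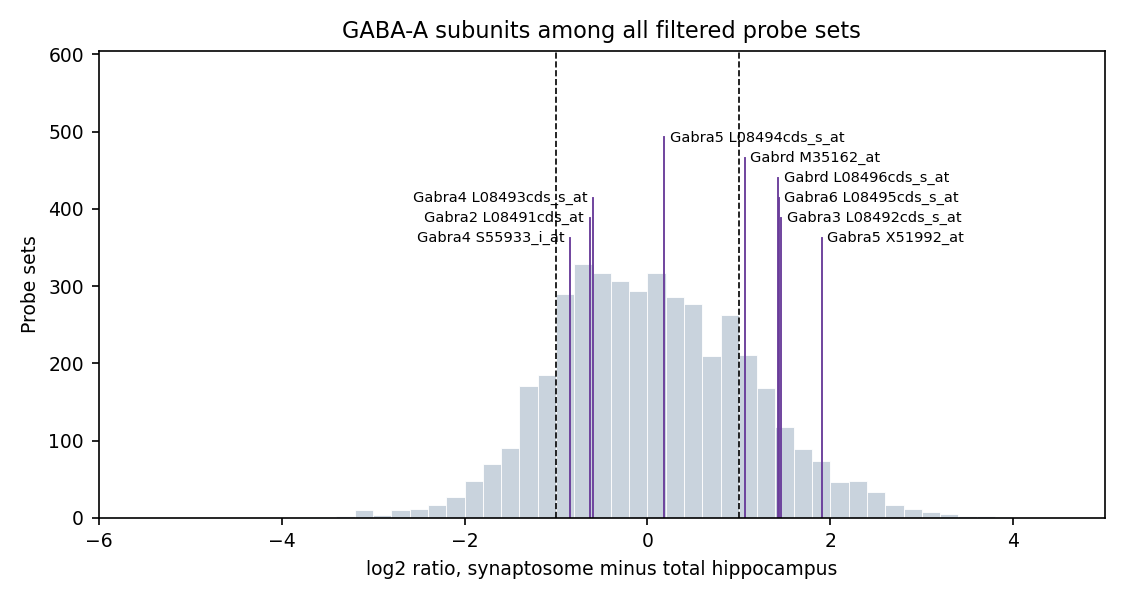
Number of filtered probe sets (4370 in all) by log2 ratio, synaptosome minus total hippocampus, in bins of equal width, with vertical lines at the 9 GABA-A subunit probe sets that passed the filter and dashed lines at 2-fold. The lines of Gabra3, Gabra6, Gabrd and 1 probe set of Gabra5 stand in the upper flank, between 1.06 and 1.91, and those of Gabra2 and Gabra4 between -0.84 and -0.60.

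Before the floor, the signal was higher in synaptosomes for 8 of the 11 probe sets and lower for the 3 probe sets of Gabra2 and Gabra4. The 8 include X51991_at of Gabra3 and the probe set of Gabrb1, negative on both arrays, and L08494cds_s_at of Gabra5, with nearly equal readings. Over all non-control probe sets 53.4% read higher in synaptosomes. Of the 8, 4 had a negative hippocampus reading, and among the 2740 probe sets with one, 86.1% read higher in synaptosomes.

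Source sequences of 1 consecutive numbering, from the Gabra2 probe set L08491cds_at to the Gabrd probe set L08496cds_s_at, supplied 6 of the 11 probe sets, 1 for each of 6 genes. Of these 6, 5 carry the suffix of a probe set that may match several transcripts. Among these 6 the ratios ran from -0.63 for Gabra2 and -0.60 for Gabra4 through 0.18 for Gabra5 to bounds for the others. The bounds were at least 1.43 for Gabra6 and Gabrd and at least 1.46 for Gabra3. Those with bounds passed the filter only through the synaptosome array, which fixes their direction. The ratios of Gabra2 and Gabra4 lie within the SD of 0.90, so this range is not read as a division of the subunits. The numbering goes on at both ends with probe sets that were not counted, as no single symbol was paired with them. L08490cds_at had a log2 ratio of -1.90 and L08497cds_at of -0.50, measured above the floor on both arrays. Among the 5 member probe sets from other sources, X51992_at and M35162_at were at least 2-fold higher, S55933_i_at was at least 1.79-fold lower, and X51991_at and X15466cds_at had no ratio. In the rat RefSeq gene order of assembly GRCr8, Gabrb1 lies next to Gabra4, and Gabra2 lies next to Gabrg1, with 1 other coding gene between Gabra4 and Gabra2. The neighbours Gabra2, Gabra4 and Gabrg1 had ratios of -0.63, of -0.60 and at least 1.79-fold lower, and of 0.16.

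Other GABA-A and GABA-C receptor subunits were also on the array. Of the 12 genes on the list 8 were named by 1 symbol, with 9 probe sets, of which 4 passed the filter. None of the 4 differed by 2-fold in either direction, and their median was 0.02. No probe set of these was above the floor in synaptosomes alone, a state that 4 of the GABA-A subunit probe sets described above were in and that the filter ties to high ratios, so the medians of both lists are not set against each other. Gabrb2, the beta2 subunit, was both the highest and the lowest. Its probe set rc_AA891476_at read 6836 in synaptosomes and 5057 in the hippocampus, a log2 ratio of 0.61. Its other, X15467cds_at, read 801, under the floor, in synaptosomes and 1542 in the hippocampus, at least 1.62-fold lower. Gabrg1, a gamma subunit, read 3103 in synaptosomes and 3126 in the hippocampus. The probe sets of Gabre, Gabrg3, Gabrp, Gabrr2 and Gabrr3 lay under the floor in synaptosomes and in the hippocampus.

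Genes that anchor and traffic GABA-A receptors were mixed. Of 17 probe sets for 12 genes 13 passed the filter, and the median ratio was 0.28. At least 2-fold differences were seen upward in 6, or 3 without centring, and downward in 2 either way. For this and the following lists, the shares over all filtered probe sets were 19.1% upward and 14.9% downward. Without centring they were 14.8% and 20.3%. Of this list Zdhhc3, a palmitoyl transferase of gamma subunits, was highest, at least 5.23-fold higher on its 1 probe set. It read 3934 in synaptosomes and 581, below the floor, in the hippocampus. All 3 probe sets of Prkcb, a protein kinase C, read higher, at 2.01-fold, 2.25-fold and 3.60-fold, and the first of these was 1.79-fold without centring. Prkcb was singled out after its values were seen. Nsf, an ATPase of membrane fusion, was lowest: 1 of its 2 probe sets was 3.10-fold lower and the other at least 2.44-fold. Gphn, which encodes the scaffold gephyrin of inhibitory synapses, read 2732 in synaptosomes and 2650 in the hippocampus, a log2 ratio of 0.21, and was likewise chosen afterwards. Nlgn2, an adhesion protein of inhibitory synapses, was negative on both arrays.

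Genes for GABA synthesis, uptake, breakdown and the GABA-B receptor had 16 probe sets for 9 genes, of which 9 passed. Their median was 0.53, with 3 higher by 2-fold or more and 1 lower, or 2 lower without centring. Gabbr2, a GABA-B receptor subunit, held both extremes. AF058795_at read 14759 in synaptosomes and 5114 in the hippocampus, 3.25-fold higher. AF074482_s_at read 429, under the floor, in synaptosomes and 2350 in the hippocampus, at least 2.47-fold lower, and AF109405_s_at, at 563 in synaptosomes and 1104 in the hippocampus, did not pass the filter. In this list, as with Gabra5 and Gabrb2, probe sets of 1 gene disagreed in size or direction.

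Chloride transporters, which set the gradient that GABA-A receptors use, had 12 probe sets for 7 genes, and 3 passed. Of these 2 were at least 2-fold higher, or 1 without centring, and 0 lower, with a median of 1.08, or 0.91 without centring. Slc12a5, which encodes KCC2, the chloride extruder of neurons, was highest, with 27432 in synaptosomes and 2946 in the hippocampus, a log2 ratio of 3.39. Its hippocampus reading lies inside the spread of negative values on that array, so the size of this ratio is uncertain. Slc12a2, the sodium-potassium-chloride cotransporter NKCC1, was the lowest that passed, at 0.96 with 1 probe set, and its other 3 probe sets were at the floor on both arrays. Glycine receptor genes had 5 probe sets for 3 genes, and 2 passed, both of Glra1. D00833_at was 2.53-fold higher, X55246_at read lower by at least 3.05-fold, and D00833_g_at was at the floor on both arrays.

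**Figure D4:**
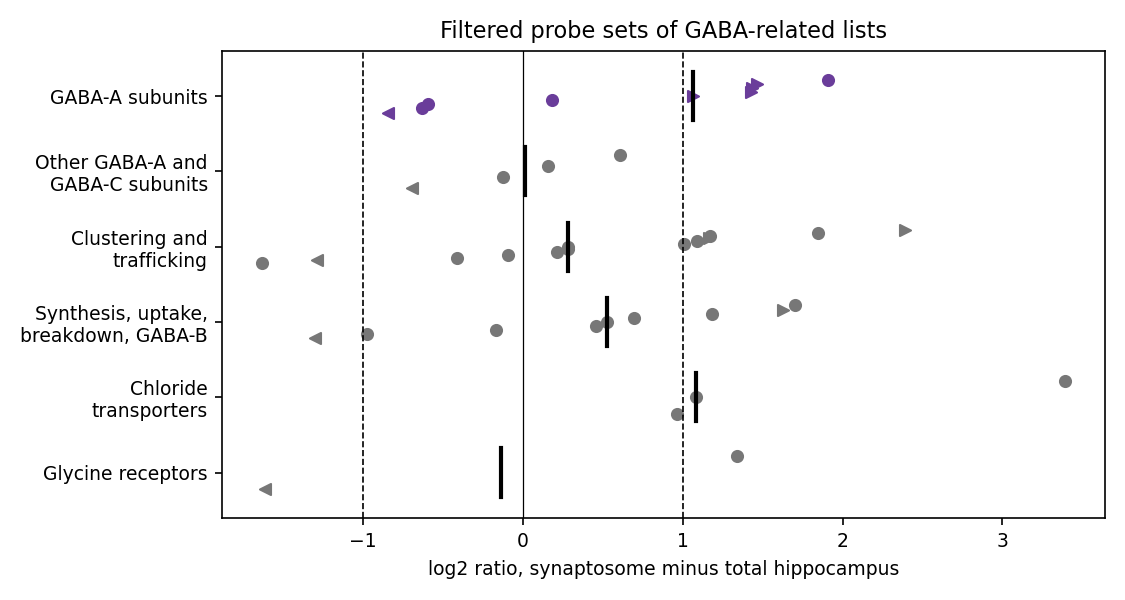
Log2 ratio, synaptosome minus total hippocampus, of each filtered probe set of the GABA-A subunits and 5 related gene lists, with triangles for bounds, thick vertical bars for the list median and dashed lines at 2-fold. The medians are 1.06 for the GABA-A subunits, 0.02 for the other subunits and 0.28 for clustering and trafficking. They are 0.53 for synthesis, uptake, breakdown and GABA-B receptors, 1.08 for chloride transporters and -0.14 for glycine receptors. The medians are not set against each other, because the filter ties bounds with the hippocampus at the floor to high ratios. Of the 9 GABA-A subunit values 4 are such bounds.

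Markers of the cells that the samples could hold differed between the arrays for some cell types, and their part in the subunit values was not tested. Their counts past 2-fold stand beside 19.1% higher and 14.9% lower among all filtered probe sets. Markers of inhibitory interneurons summed to 28922 in synaptosomes and 48178 in the hippocampus over 10 probe sets, and of 7 filtered probe sets 1 was higher by 2-fold or more and 4 were lower by as much. The GABA-synthesizing enzymes Gad1 and Gad2 had log2 ratios of 0.70 and 1.18, while Npy, Sst, Calb2 and Pvalb had ratios between -1.39 and -1.03, and Vip and the other probe set of Sst were at the floor on both arrays. Excitatory neuron markers had 10 filtered probe sets, 3 of them higher by 2-fold or more, or 1 without centring, and 1 lower. All 3 were bounds with the hippocampus at the floor, and Slc17a7 was negative on both arrays. Oligodendrocyte markers had 10 too, 1 of them higher by 2-fold or more and 6 lower, with a median of -1.57 and sums of 31914 in synaptosomes and 80017 in the hippocampus. Astrocyte markers had a median of 0.05 over 16 filtered probe sets, and their sums were 372774 in synaptosomes and 399078 in the hippocampus, so glial RNA was present in both. Endothelial markers had 3, of which 0 were higher and 2 lower by 2-fold or more. Microglial markers had 1 of 2 at least 2-fold higher, and pan-neuronal markers had 0 of 13 higher and 3 lower, all 3 of Snap25.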

How the data were processed

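Per the labels' protocols, total RNA was reverse transcribed with a SMART cDNA kit, amplified by T7 transcription from its poly(dT) primer and labelled with biotin. The authors deposited linear intensity values of 8740 non-control and 59 control probe sets of an Affymetrix rat array. Not given in the sources used here are the scanner software, its background correction and a genome build. Trimmed by 2% at each end, the mean signal was 2504 in synaptosomes and 2505 in the hippocampus. The intensities were therefore not rescaled before the ratios were taken, but the ratios were then centred. At or below 0 were 25.2% of synaptosome values and 31.4% of hippocampus values.

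Values were floored at 846, percentile 50 of both arrays' non-control values together, and log2 was taken. Probe sets with a mean log2 level of at least 10.07, the median, passed the filter. The median ratio of these, -0.17, was subtracted, which makes higher folds 1.13 times the quotient of the floored signals and lower folds smaller by that factor. Symbols came from the platform's annotation, and all 7 members matched rat RefSeq (GRCr8) by gene identifier. The members, lists and rules were chosen with earlier results of these data known. Named genes were all members' probe sets and, from each GABA list, the genes with the highest and lowest ratio. Other list genes and markers named with values were chosen after their values were seen. Precision is limited by the number of arrays, 1 in each group. The steps were tested on simulated data, with changes planted only in brighter probe sets and no noise added between the arrays. That test does not cover low signals like those of most members. Python 3.11.15, NumPy 2.4.6, pandas 2.3.3, statsmodels 0.14.6 and matplotlib 3.10.9 were used. Alternatives changed the floor, centring, filter and normalization, and the choice of probe sets.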

Additional observations from a re-analysis of the deposited data

How the results depend on the processing

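No paired analysis was possible because each group has 1 array and no test was made. Of 48 recalculated probe set ratios under the other settings, 47 moved by less than the SD between probe sets of 1 gene, and no ratio changed sign in those settings that gave one. The exception was X51992_at of Gabra5, with a bound of 0.44 at the percentile 75 floor. The count is no measure of robustness, because no centring and the changed filters shift every ratio by the same small amount. They could not move a ratio past that SD or turn the sign of a bound. The percentile 75 floor could move a ratio that far, but it left values for only 3 member probe sets. At that floor 0 member probe sets were at least 2-fold higher and the median over the 3 left was -0.16, a reversal of 1.06, with 6 more members at the floor on both arrays. Without suffixed probe sets, 2 of 3 were at least 2-fold higher, and with 1 probe set per gene 3 of 6 were. Without centring 1 probe set was at least 2-fold lower, S55933_i_at of Gabra4. The other summary values were the same or within the error. Signal over background limits every member, Gabra2 the least. Its readings passed the spread of negative values by little, with 3267 against 2912.6 in synaptosomes and 5693 against 5280.25 in the hippocampus.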
